A study of Mus musculus with 11 samples.

Results

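Naive follicular B cells of the mouse lung were described from single-cell libraries of dissociated lung tissue. They were picked by a gate on UMI counts (unique molecular identifiers, each 1 captured RNA molecule). A barcode was kept when it held between 1000 and 30000 UMIs, of which mitochondrial genes made up no more than 14%. A naive cell had at least 3 UMIs of Cd79a and Cd79b together, at least 1 of Ighd, at least 1 of Fcer2a, none of Zbtb32, Bhlhe41, Sox5 or Cd3e, and at most 2 of Egr3, Myc and Cd83 together. The gate held 3089 of the 69267 kept cells of 11 libraries. These were also 3089 of the 16064 B cells, meaning kept cells with 3 or more Cd79a and Cd79b UMIs and no Cd3e.

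The libraries came from lungs of mice of 4 genotypes. WT is wild type (+/+) and had 1 library. p21Het is heterozygous for p21 (+/-; p21 is the protein of Cdkn1a, an inhibitor of cyclin-dependent kinases) and had 3. p21mTert (+/mTert) had 5 and carries mTert, the mouse telomerase reverse transcriptase, at p21, while p21mTertCD (+/mTertCD) had 2, and the labels do not spell out CD. In all groups but WT 1 p21 allele was thus altered. The mice were 18 months old by the library names. The age field reads 19 months for p21Het_1 and 20 months for p21mTert_1. Libraries are named by group and number, and the labels do not say that each was a separate animal, so p-values measure the spread between libraries. WT_1, p21Het_1 and p21mTert_1 were deposited first, and the other 8 later.

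Follicular B cells are the resting, recirculating B cells of blood and lymphoid follicles. A naive one carries IgM and IgD of 1 specificity on its surface, made from the same heavy chain transcript by alternative splicing, with either a kappa or a lambda light chain. CD23, the low-affinity IgE receptor encoded by Fcer2a, is a surface protein of this cell type, and IgD is lost once a B cell switches class or becomes a plasma cell. In the lung such cells lie in the vessels and in lymphoid aggregates, where they meet antigen that may activate them.

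The genes and counts used by the gate describe its members and support nothing. From 16064 B cells, 13482 had an Ighd UMI, 7429 of those an Fcer2a UMI, 7120 of those none of Zbtb32, Bhlhe41 and Sox5, and 3089 of those at most 2 of Egr3, Myc and Cd83. A median member had 13 UMIs of Cd79a and Cd79b (the B cell receptor's signalling chains; 3 to 55), 4 of Ighd and 1 of Fcer2a. In 1624 members (52.6%) the Fcer2a count was exactly 1, just inside the limit, while 2666 cells that passed everything else had 0. On the activation limit 1030 members had exactly 2 UMIs of Egr3, Myc and Cd83, and 831 cells had 3 and fell just outside. Those neighbours were alike in other B cell genes: inside and outside the activation limit, Ms4a1 stood at 714 and 711 CPM (UMIs of a gene per 1000000 UMIs of the same cells) and Ighm at 2504 and 2440 CPM. Across the Fcer2a limit Ighm was 2528 CPM inside and 3909 CPM outside, and Cr2 112 and 87.5 CPM.

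A naive cell held a median of 3727 UMIs and 1403 genes. The libraries' naive sums ran from 66485 UMIs (13 cells of p21mTertCD_1) to 2272879 UMIs (617 cells of p21Het_1), from libraries of 42038434 to 85988955 UMIs in all. No naive barcode was shared by libraries, although 617 barcodes of kept cells occurred in more than 1 library, with at most 20 for any pair. The median mitochondrial share of naive cells was 7.39% to 7.96% in the 3 libraries deposited first and 3.82% to 5.51% in the later 8. A doublet caller marked 114 naive cells (3.69%), and 197 (6.38%) held 20 or more UMIs of the markers of another cell type, from 2.21% in p21mTert_5 to 18.8% in p21Het_2 and 27.9% in p21Het_3. The epithelial genes Sftpc and Scgb1a1 were left out of this count, and T cell and plasma cell markers were not used. An Sftpc UMI was seen in 66.3% of naive cells in WT_1 and up to 96.6% in p21Het_2, so stray RNA was wider than this count. Cells with 100 or more UMIs of the 8 alveolar epithelium markers, Sftpc included, were taken as epithelial. UMIs of B cell genes were counted in 3740 such cells that had no Cd79a or Cd79b UMI and a median of 8945 UMIs. Of these, 63.6% had an Igkc UMI, 26.4% an Ighm UMI, 10.1% an Fcer2a UMI, 1.39% an Ighd UMI and 0.802% an Ms4a1 UMI, against 98.0%, 99.7%, 100%, 100% and 89.1% of naive cells. Fcer2a did not follow Ighd there, with 17.6 against 1.23 CPM in epithelial cells and 448 against 1088 CPM in naive cells. Where the epithelial Fcer2a UMIs came from was not tested. A single naive cell of p21Het_1 held 4419 Sftpc UMIs, so the cut for epithelial cells may also take in other cells that carry such RNA.

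The 18 genes of the follicular identity list, none of which the gate used, had a UMI in 28.9% (Fcrl1 and Cd180) to 99.7% (Ighm) of the naive cells. Of these cells, 89.1% had a UMI of Ms4a1 (CD20), 93.2% of Cd37 (a tetraspanin of mature B cells) and 81.1% of Fcmr (the IgM Fc receptor). Over the 10 libraries with at least 20 naive cells, Cd37 ranged from 534 to 953 CPM with a median of 785, Ms4a1 from 534 to 844 CPM with a median of 729, and Cr2 (complement receptor 2), with a UMI in 30.6% of cells, from 58.2 to 153 CPM with a median of 119. The lineage factor Ebf1 had a median of 1618 CPM and a UMI in 98.8% of cells, and the quiescence factor Klf2 1501 CPM and 94.2%. Markers of earlier and other B cells ranged from absent to common. Rag1, Rag2, Dntt and Igll1, which act in B cell precursors, had 0 UMIs in all 3089 cells, which allows a share of cells with a UMI of up to 0.0971%. The B1 cell marker Cd5 had a UMI in 0.259% of cells and the proliferation gene Mki67 in 0.486%. Cd93, a transitional B cell marker, was seen in 7.25% and the precursor gene Vpreb3 in 47.6% of cells. Of the marginal zone list, Plac8 and Mzb1 had a UMI in 53.1% and 56.7% of cells, with medians of 365 and 240 CPM, and the other 6 members in 0.194% to 21.3%. Of the memory and age-associated list, Ahnak had a UMI in 39.2% of cells and Fcrl5 in 1.00%.

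The naive cells were set beside the 3 other kinds of B cells that the same gate defines: 1829 atypical cells with a UMI of Zbtb32, Bhlhe41 or Sox5, 7480 activated cells without these but with 3 or more UMIs of Egr3, Myc and Cd83, and 3666 remaining B cells that lacked Ighd, Fcer2a or both, called other B cells. Since these sets were cut from the same cells, the levels are a description with no test. The question was which further genes differ in the same direction in every 1 of the 10 libraries. Against activated cells, 2.99% of 7414 genes were higher in naive cells in all libraries and 3.41% were lower. Against atypical cells it was 18.6% and 9.06% of 7711 genes, and against other B cells 11.8% and 3.99% of 7552. Light chain constant genes summed to a median of 9413 CPM in naive, 13733 in activated, 66503 in atypical and 55063 in other B cells. A larger immunoglobulin sum leaves less CPM for every other gene. An atypical cell also held a median of 8439 UMIs, against 3727 in a naive cell. The part of both in these counts was not tested.

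Follicular identity genes were higher in naive than in atypical cells in all 10 libraries for 12 of 18 members, and lower for 2, Ighm and Cd24a. Against activated cells 5 of the 18 were higher and 2, Cd72 and Cd180, lower. Cd55, which restrains complement, had medians of 439 CPM in naive, 364 in activated, 146 in atypical and 281 in other B cells. For Cr2 the medians were 119, 114, 34.0 and 54.1 CPM in the same order, but it was not above activated cells in all 10 libraries. Ms4a1 did not follow this order, with 729 CPM in naive and 784 CPM in atypical cells. Among transcription factors 7 of 16 were higher than in atypical and 10 of 16 than in other B cells, and none was lower. Against activated cells 4 of 16 were higher, Pax5, Ebf1, Foxp1 and Bach2, and 1, Irf8, was lower. Ebf1 stood at 1618 CPM in naive, 1343 in activated, 662 in atypical and 1185 in other B cells. Bach2, a repressor of plasma cell differentiation, had 238, 182, 88.1 and 183 CPM.

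Of 14 homing genes, which steer B cells between blood and lymphoid tissue, 3 were higher and 3 lower in naive than in activated cells in all 10 libraries. Against atypical cells 7 were higher and 1, the integrin Itgb1, lower (28.1 against 146 CPM), and against other B cells 8 were higher and none lower. Ccr7, the receptor for chemokines of the T cell zone, had a median of 647 CPM in naive, 599 in activated, 291 in atypical and 444 in other B cells. S1pr1, which guides egress into blood, had 242, 210, 169 and 193 CPM and was highest in naive cells in all 10 libraries. The receptors Ccr6 and Gpr183 were lower than in activated cells (74.0 against 106 CPM and 295 against 436 CPM). Cxcr5, the receptor that leads to follicles, was also lower in naive than in activated cells in all 10 libraries (184 against 208 CPM) and higher than in atypical (118 CPM) and other B cells (131 CPM). All 10 genes of MHC class II presentation were higher in naive than in atypical cells in all libraries. Their largest member, the invariant chain Cd74, had 11649 CPM in naive, 11189 in activated, 8084 in atypical and 9030 in other B cells.

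Immediate early genes, which B cell receptor signals induce, were lower in naive than in activated cells in all 10 libraries for 13 of 16 members, with none higher. Egr1 had a median of 78.3 CPM in naive and 395 in activated cells, Nr4a1 374 and 762 CPM, and the early activation marker Cd69 242 and 462 CPM. The gate reads Egr3, Myc and Cd83, so genes that follow them from cell to cell were chosen with it. Secretory genes were lower than in atypical cells in all libraries for 11 of 11 members of the plasma cell list. Jchain, which joins IgM and IgA into polymers, had 16.1 CPM in naive, 443 in activated, 4484 in atypical and 4179 in other B cells. Of the memory and age-associated list 7 of 10 members were lower than in atypical cells, among them Fcrl5 (2.19 against 39.4 CPM) and Cd80 (2.39 against 38.2 CPM). The plot of levels in 4 kinds of B cells shows these genes side by side.

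**Figure D1:**
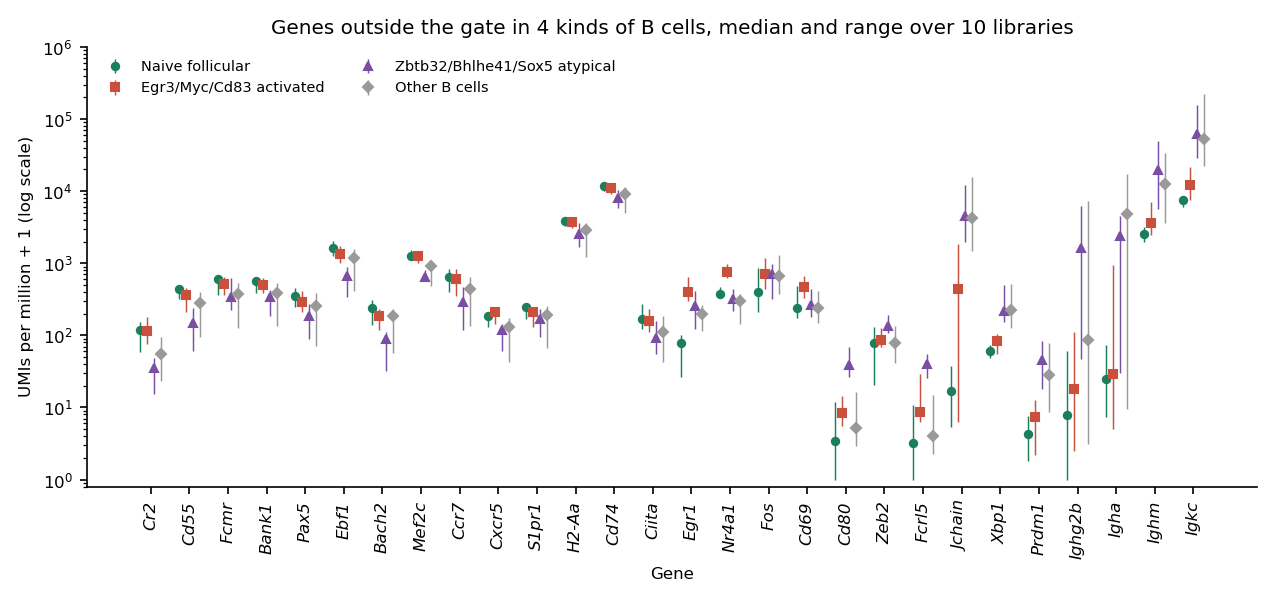
Level of genes outside the gate in 4 kinds of B cells, as CPM plus 1 on a log axis (vertical), by gene (horizontal). Points are medians and lines the range over 10 libraries. Ebf1 and S1pr1 are highest in naive cells (1618 and 242 CPM), Egr1 is lowest there (78.3 CPM), and Jchain is at 16.1 CPM against 4484 CPM in atypical cells.

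The constant regions of the heavy chain were counted in the naive cells. Ighm is the constant region of IgM and Ighd that of IgD, which the gate used. The ratio of Ighm to Ighd UMIs was 1.89 in WT_1, 2.301, 2.77 and 2.72 in p21Het_1 to p21Het_3, 2.39, 2.47, 2.19, 2.26 and 2.70 in p21mTert_1 to p21mTert_5, and 2.95 and 3.23 in the p21mTertCD libraries. Pooled over libraries it was 2.42, against 5.66 in activated, 150 in atypical and 33.7 in other B cells. The gate asks for Ighd in naive cells, and other B cells lacked Ighd, Fcer2a or both, so the low naive ratio was favoured by the rule. No Ighd limit was set on activated or atypical cells, so their order was not set by it. Cells with 3 or more UMIs of switched constant regions (Ighg1, Ighg2b, Ighg2c, Ighg3, Igha) made up 1.07% of naive, 3.25% of activated, 26.1% of atypical and 6.36% of other B cells. In p21Het_2 they were 12.1% of the naive cells (18 of 149), and in the other 10 libraries at most 2.14%. Free immunoglobulin RNA was not measured library by library, and its part in the p21Het_2 value was not tested. A deeper cell reaches a fixed 3 UMIs more easily. Median depths were 3727 UMIs in naive, 4435 in activated, 8439 in atypical and 3716 in other B cells. The part of depth in the switched shares was not tested.

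The naive share was measured in each library as a share of kept cells and of B cells. Naive cells were 9.17% of kept cells in WT_1. They were 9.92%, 1.75% and 3.48% in p21Het_1 to p21Het_3, and 6.72%, 3.88%, 2.22%, 3.43% and 5.74% in p21mTert_1 to p21mTert_5. In p21mTertCD_1 they were 0.198% (13 cells; exact 95% interval 0.106% to 0.339%) and in p21mTertCD_2 4.81%. The 3 libraries deposited first held the 3 highest shares, and the groups overlapped. The mean share was 5.05% ± 4.31 (SD, n = 3) for the p21Het libraries, 4.40% ± 1.81 (SD, n = 5) for the p21mTert libraries and 2.50% ± 3.26 (SD, n = 2) for the p21mTertCD libraries. The difference of p21mTert from p21Het was -0.652 points (2-sided exact permutation test, p = 0.821, adjusted over 9 share tests 0.821). It turned to 1.79 points without p21Het_1 and to 1.21 points within the later deposit. The deposit that came first holds 1 p21Het, 1 p21mTert and no p21mTertCD library, so it gave no test of its own. Against p21mTertCD the difference was 1.90 points (exact permutation p = 0.381, adjusted 0.796), and -0.407 points without p21mTertCD_1.

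All B cells varied in the same libraries, from 2.65% of kept cells in p21mTertCD_1 and 14.8% in p21Het_2 to 38.3% in p21Het_1 and 39.9% in WT_1. Within B cells the naive share was 23.0% in WT_1, 25.9%, 11.8% and 21.6% across the p21Het libraries, and 21.5%, 16.8%, 9.79%, 15.7% and 20.9% across the p21mTert libraries. The p21mTertCD libraries held 7.47% and 20.0%. Here too the groups overlapped. Group means were 19.8% ± 7.22 (SD, n = 3), 17.0% ± 4.72 (SD, n = 5) and 13.7% ± 8.83 (SD, n = 2). p21mTert differed from p21Het by -2.80 points (exact permutation p = 0.500, adjusted 0.796) and from p21mTertCD by 3.24 points (p = 0.619, adjusted 0.796, same test). Without p21Het_1 the former was 0.254 points, and without p21mTertCD_1 the latter was -3.00 points. p21mTertCD and p21Het differed by -2.55 points of kept cells (exact permutation p = 0.600) and -6.05 points of B cells (p = 0.400), both adjusted 0.796, in a design whose smallest possible p is 0.1. Without p21mTertCD_1 these were -0.245 points of kept cells and 0.193 points of B cells, and without p21Het_1 the former was -0.111 points. Since each gate count depends on depth, cells were also thinned to 1000 UMIs, which left naive shares of B cells of 4.59% to 12.5% in p21Het and 7.17% to 15.7% in p21mTert. The mean difference then was 2.69 points in favour of p21mTert. The whole gate was read again on the thinned counts, and its upper limits are easier to meet at lower depth. The thinned naive cells are therefore another set of B cells.

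**Figure D2:**
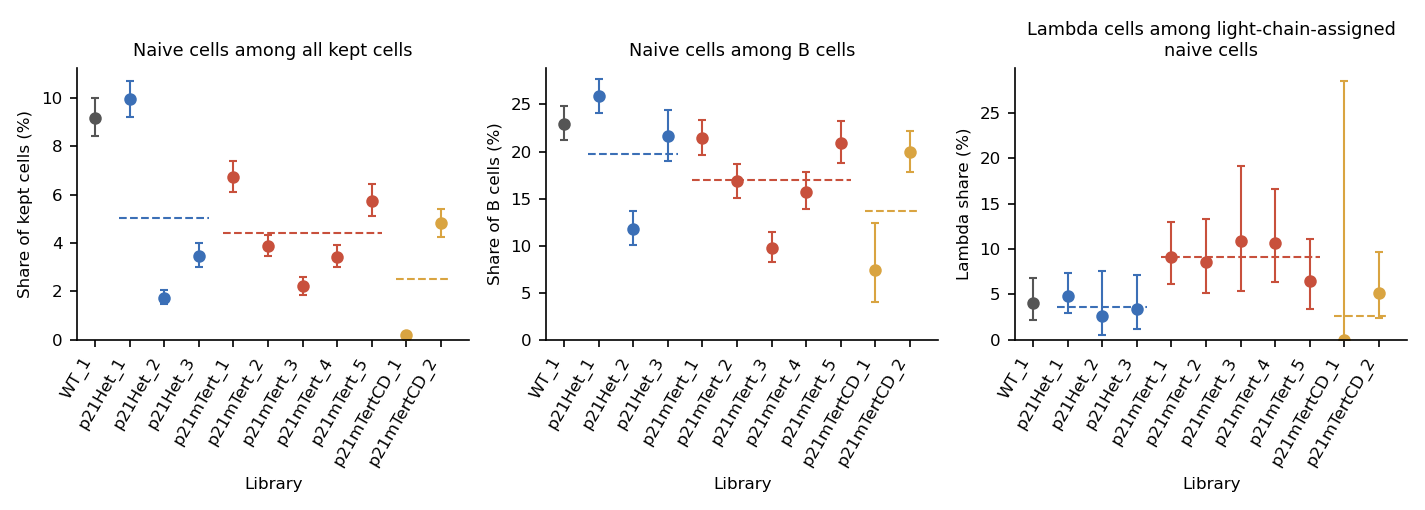
Naive cells as a percentage of kept cells (left) and of B cells (middle), and lambda cells as a percentage of naive cells with an assigned light chain (right), by library. Points are libraries, bars exact 95% binomial intervals and dashed lines group means. Kept-cell shares run from 0.198% to 9.92% with overlapping groups, and the 5 p21mTert libraries lie above the 3 p21Het libraries in lambda share (6.52% to 10.9% against 2.65% to 4.85%).

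The light chain, which the gate did not read, was assigned from the constant regions Igkc (kappa) and Iglc1, Iglc2 and Iglc3 (lambda). A cell was called kappa or lambda where that chain had at least 3 UMIs and at least 80% of the cell's light chain UMIs. Of the naive cells, 2017 (65.3%) were kappa, 135 (4.37%) lambda, 926 (30.0%) had both chains at 3 or more UMIs with neither at 80%, and 11 had too few. A kappa cell had medians of 33 Igkc, 0 Iglc1, 2 Iglc2 and 1 Iglc3 UMIs, and a lambda cell 1 Igkc, 15 Iglc1, 4 Iglc2 and 1 Iglc3 UMIs. Among the 926 cells with both, the medians were 23, 1, 4 and 3 UMIs in the same order. An Iglc2 UMI was seen in 84.6% of naive cells and 2.70% of the cells taken as epithelial. For Iglc3 these shares were 80.1% and 1.28%, and for Iglc1 33.9% and 3.24%. Why so many naive cells held UMIs of both chains was not tested. Iglc1 was the largest lambda gene in 99 of 135 lambda cells, Iglc2 in 30 and Iglc3 in 6. Iglc2 and Iglc3 lie close in sequence, and the counting may have split their reads, so their separate counts are uncertain.

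In p21mTert libraries a larger share of assigned naive cells was lambda than in p21Het libraries, although the difference did not pass adjustment. Cells with both chains were left out of this share. They were 201 of 617, 36 of 149 and 23 of 204 naive cells in p21Het_1 to p21Het_3. In p21mTert_1 to p21mTert_5 they were 121 of 418, 83 of 292, 48 of 140, 56 of 215 and 87 of 271. The lambda share of assigned cells was 4.01% in WT_1 (13 of 324 cells). It was 4.85%, 2.65% and 3.35% in p21Het_1 to p21Het_3, from 20, 3 and 6 lambda cells. In p21mTert_1 to p21mTert_5 it was 9.12%, 8.61%, 10.9%, 10.7% and 6.52%, from 27, 18, 10, 17 and 12 lambda cells. The groups did not overlap, the lowest p21mTert value being above the highest p21Het value. The means were 9.16% ± 1.77 (SD, n = 5) and 3.62% ± 1.12 (SD, n = 3), a difference of 5.54 points (2-sided exact permutation p = 0.0179, the smallest this design allows, adjusted over 9 share tests 0.161). In p21mTertCD_1 the share was 0 of 11 cells, and in p21mTertCD_2 5.20% (9 of 173 cells), between the ranges of the other groups. p21mTert exceeded p21mTertCD by 6.56 points (exact permutation p = 0.0476, the smallest possible, adjusted 0.214) and by 3.96 points without p21mTertCD_1. p21mTertCD differed from p21Het by -1.02 points (exact permutation p = 0.8, adjusted 0.821) and by 1.58 points without p21mTertCD_1.

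The lambda difference between p21mTert and p21Het depended on how cells were read. Within the later deposit it was 6.17 points (exact permutation p = 0.0667, the smallest for 4 against 2 libraries), and with 5 UMIs and 90% required it was 10.4 points. After thinning every cell to 1000 UMIs it was -0.0871 points (exact permutation p = 0.946), with 15 to 133 assigned cells in the p21Het and 34 to 132 in the p21mTert libraries. The thinned p21Het shares were 8.27%, 6.67% and 6.90%, from 11, 1 and 2 lambda cells. Both the gate and the light chain call were read again on the thinned counts. The upper limits on Egr3, Myc and Cd83 and on Zbtb32, Bhlhe41 and Sox5 are easier to meet at lower depth. The thinned shares are therefore not those of the same naive cells at equal depth. In the other kinds of B cells, p21mTert and p21Het means were 5.22% and 4.03% in activated (exact permutation p = 0.286), 7.90% and 5.45% in atypical (p = 0.304) and 8.82% and 6.57% in other B cells (p = 0.214, each by the same exact test and 0.304 when adjusted over the 3). Their library values overlapped in all 3, and whether the naive difference is larger was not tested.

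**Figure D3:**
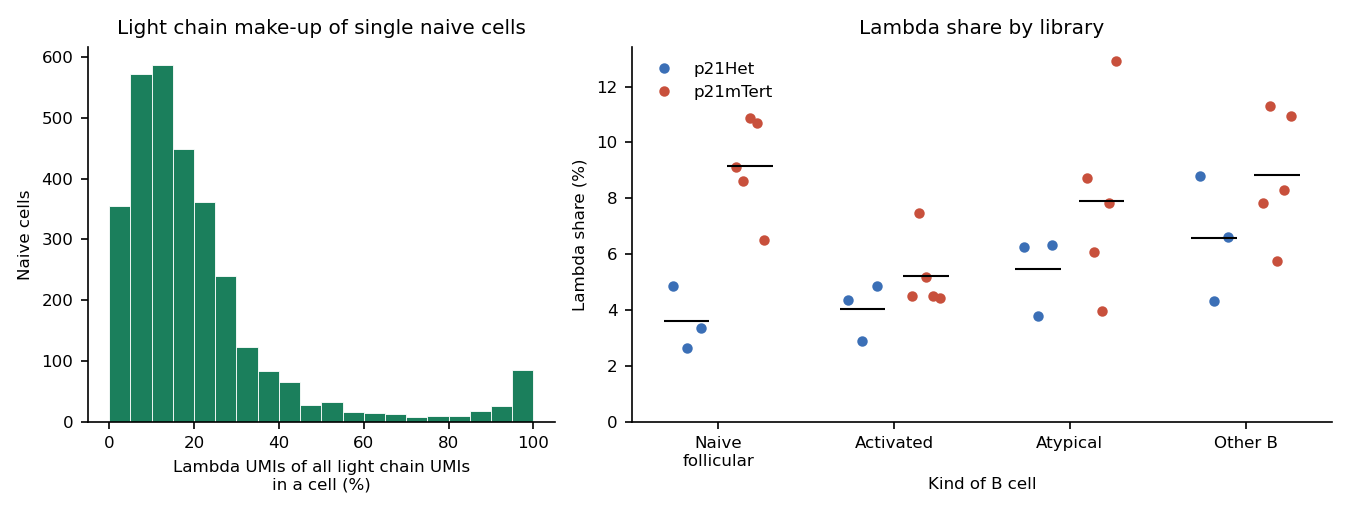
Left, number of naive cells (vertical) by the percentage of lambda among their light chain UMIs (horizontal), in bins of 5 points: most cells lie below 50% and a separate group lies near 100%. Right, lambda share of assigned cells in each p21Het and p21mTert library (points) with group means (lines) for 4 kinds of B cells: the groups do not overlap in naive cells (means 3.62% and 9.16%) and overlap in the other 3.

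Summed naive UMIs gave the levels of the light chain genes too. Iglc1 was at 383, 229 and 181 CPM in the p21Het libraries and at 554, 380, 774, 431 and 484 CPM in the p21mTert libraries, so p21mTert_2 lay just under p21Het_1. It stood at 383 CPM in WT_1 and 391 CPM in p21mTertCD_2. Its log2 fold change between p21mTert and p21Het was 0.98 (SE 0.26; edgeR's quasi-likelihood test, unadjusted p = 0.00199, adjusted p = 0.994). For Iglc2, Iglc3 and Igkc it was 0.56, 0.39 and 0.05, and none passed adjustment.

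Expression was compared between genotypes on counts summed over the naive cells of each library, with edgeR's quasi-likelihood test and Benjamini-Hochberg adjustment over 9479 genes. The fit held 3 p21Het, 5 p21mTert and 1 p21mTertCD library. p21mTertCD_1 was left out for its 13 naive cells, so the lone p21mTertCD library was assumed to vary like the others.

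The altered locus was looked at first. Cdkn1a was at 21.3 CPM in WT_1, at 29.9, 29.5 and 32.2 CPM in the p21Het libraries and at 11.2, 32.7, 13.6, 12.3 and 13.7 CPM in the p21mTert libraries. The p21mTertCD libraries had 15.04 CPM (1 UMI) and 10.3 CPM. All p21mTert libraries but p21mTert_2 lay below all p21Het libraries, and p21mTert_2 lay above them. Its log2 fold change in p21mTert over p21Het was -0.82 (SE 0.33; edgeR, unadjusted p = 0.0266, adjusted p = 1.00), and in p21mTertCD over p21Het -1.54 (SE 0.59; edgeR, unadjusted p = 0.0213, adjusted p = 1.00). Tert was barely detected: each library held 1 to 4 UMIs, in 1 to 4 cells, and all 5 p21mTert libraries together 13 UMIs. It was too low to be tested, and at 0.880 to 3.397 CPM outside p21mTertCD_1 the libraries of the groups overlapped. These values do not distinguish the genotypes, and a 3′ count does not show which allele was read.

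Between p21mTert and p21Het 3 genes of 9479 passed the test (0.0316%), 1 higher (0.0105%) and 2 lower (0.0211%) in p21mTert. At an unadjusted p under 0.05 there were 351 genes (3.7%), 148 higher (1.56%) and 203 lower (2.14%), and 234 genes (2.47%) had library values that did not overlap between the groups. Gm42031, a long intergenic noncoding RNA, was higher in p21mTert. Rell1, a membrane protein of the RELT family, and Ifi208, a PYHIN family gene of the interferon-inducible cluster on chromosome 1, were lower. In GENCODE M21 (GRCm38) Gm42031 (ENSMUSG00000110386) lies at chr8:85125872-85132289 on the minus strand, Rell1 (ENSMUSG00000047881) at chr5:63908897-63968897 on the minus strand, and Ifi208 (ENSMUSG00000066677) at chr1:173673675-173698395 on the plus strand.

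The 250 bases before the start of these 3 genes are given because they are the genes that differed, and because Ifi208 belongs to a family known for induction by interferon. They are RefSeq sequence of GRCm38.p6 on the gene's strand, at chr1:173673415-173673664, chr5:63968898-63969147 and chr8:85131815-85132064 in the order shown. RefSeq starts Gm42031 further downstream than GENCODE, so its window lies inside the GENCODE gene. Capitals mark a match to GAAA, any 2 bases and GAAA again, the core of the interferon-stimulated response element, searched on both strands.
Ifi208: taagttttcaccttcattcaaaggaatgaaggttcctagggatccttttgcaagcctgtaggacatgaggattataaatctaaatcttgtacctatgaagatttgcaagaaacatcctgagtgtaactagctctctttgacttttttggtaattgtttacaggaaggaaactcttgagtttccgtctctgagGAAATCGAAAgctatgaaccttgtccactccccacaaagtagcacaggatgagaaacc
Rell1: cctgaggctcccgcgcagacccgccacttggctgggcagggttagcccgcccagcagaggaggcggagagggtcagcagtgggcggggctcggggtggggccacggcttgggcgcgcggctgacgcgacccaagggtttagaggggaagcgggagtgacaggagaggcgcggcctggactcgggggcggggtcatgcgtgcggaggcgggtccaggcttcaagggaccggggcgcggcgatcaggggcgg
Gm42031: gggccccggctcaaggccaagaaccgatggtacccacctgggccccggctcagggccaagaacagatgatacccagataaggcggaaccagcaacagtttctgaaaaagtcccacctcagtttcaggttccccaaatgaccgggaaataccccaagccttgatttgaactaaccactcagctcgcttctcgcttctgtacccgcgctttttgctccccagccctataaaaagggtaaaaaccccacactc
The Ifi208 stretch holds 1 match, 58 bases before the start, and the Rell1 and Gm42031 stretches hold none. Of 32851 mouse promoter windows of this length, 978 (2.98%) hold the motif. Of the 20 interferon response genes listed for this work, 15 have a window and 11 of these hold it. A match of letters is a description of sequence and shows no binding.

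Gm42031 was at 30.3 CPM in WT_1, at 10.6, 23.9 and 32.2 CPM in p21Het, and at 133, 70.5, 78.1, 98.7 and 81.2 CPM in p21mTert. In p21mTertCD_2 it was at 29.3 CPM. The lowest p21mTert library was thus more than the highest of any other group, and WT and p21mTertCD_2 lay within the p21Het range. The means were 92.3 ± 24.9 CPM (SD, n = 5) and 22.2 ± 10.9 CPM (SD, n = 3), and the log2 fold change was 2.18 (SE 0.32, edgeR adjusted p = 0.0384). It was carried by many cells: 22.9% to 32.8% of naive cells had a UMI in the p21mTert libraries, 3.24% to 14.7% in p21Het, 10.6% in WT_1 and 12.3% in p21mTertCD_2. The call was lost without any 1 of p21Het_1, p21Het_2 and the 5 p21mTert libraries, with adjusted p of 0.101 to 0.198 and log2 fold changes of 1.61 to 2.34.

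Rell1 was at 33.0 CPM in WT_1, at 44.0, 46.4 and 69.2 CPM across p21Het, and at 17.6, 15.3, 13.6, 26.9 and 13.7 CPM across p21mTert. In p21mTertCD_2 it was at 35.6 CPM. All p21mTert libraries lay below every library of the other groups. The means were 17.4 ± 5.56 CPM (SD, n = 5) and 53.2 ± 13.9 CPM (SD, n = 3), and the log2 fold change was -1.62 (SE 0.24, edgeR adjusted p = 0.0384). A Rell1 UMI was seen in 5% to 8.37% of the p21mTert and 13.3% to 26.5% of the p21Het naive cells. Without p21Het_2, p21Het_3, p21mTert_1, p21mTert_2, p21mTert_3 or p21mTert_5 the call was lost, with adjusted p of 0.0787 to 0.198 and log2 fold changes of -1.39 to -1.62. 5830416I19Rik, a noncoding RNA 76.1 kb from Rell1 (chr5:64044978-64050228), was picked after its values were seen. It had 30 UMIs in the p21Het libraries (10.999, 1.41 and 3.90 CPM) and 0 in the 5523048 UMIs of the p21mTert libraries, so it was at least 13.8-fold lower there (floor of 3 counts over the group). Of the 30 UMIs, 25 were in p21Het_1, and without that library the bound was 5.30-fold. Its edgeR adjusted p was 0.959, and it was at 9.05 CPM in WT_1 and 4.75 CPM in p21mTertCD_2.

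Ifi208 was at 10.6 CPM in WT_1, at 16.3, 15.5 and 10.7 CPM across p21Het, and at 0.702, 1.45, 1.70, 1.12 and 2.41 CPM across p21mTert. In p21mTertCD_2 it was at 7.92 CPM. The p21mTert values rest on 1 to 3 UMIs a library, and all lay below every library of the other groups in the fit. The means were 1.48 ± 0.64 CPM (SD, n = 5) and 14.2 ± 3.00 CPM (SD, n = 3), and the log2 fold change was -3.22 (SE 0.48, edgeR adjusted p = 0.0384). Genes of this cluster are near-identical in part, so the split of reads among them is uncertain. The call was lost without any 1 library of the fit except p21Het_3 and p21mTertCD_2 (adjusted p of 0.117 to 0.402), and also without the cells holding other cells' markers (log2 fold change -2.87, adjusted p = 0.0631). In that same fit Gm42031 (2.295, adjusted p = 0.00106) and Rell1 (-1.81, adjusted p = 0.00192) were called. With a term for the deposit Rell1 alone was called (adjusted p = 0.0426), and within the later deposit no gene was. Ifi208 was also not called with the replicate number as a block. A stricter gate (at least 5 Cd79a and Cd79b and 2 Ighd UMIs) also ended all 3 calls, with edgeR adjusted p of 0.0574 for Gm42031 and Rell1 and 0.0848 for Ifi208.

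Outside the naive gate, the 3 genes were set side by side for the same libraries, with no test. In activated B cells Gm42031 ran from 80.7 to 156 CPM in p21mTert and from 9.82 to 25.7 CPM in p21Het, and in cells with no Cd79a or Cd79b UMI from 22.4 to 63.7 and from 1.82 to 8.65 CPM. Rell1 ran from 9.96 to 21.4 and from 29.5 to 53.5 CPM in activated cells, and from 26.1 to 31.9 and from 44.1 to 68.5 CPM in cells without Cd79. Groups overlapped for Rell1 in atypical and other B cells. For Ifi208 the groups did not overlap in any kind of B cell (0.293 to 1.91 against 8.81 to 11.8 CPM in activated cells), and overlapped in the cells without Cd79 (4.91 to 7.14 against 7.10 to 12.8 CPM). Cdkn1a, which was not called in naive cells, ran from 16.1 to 28.0 CPM in p21mTert and from 35.6 to 37.7 CPM in p21Het activated cells. Its groups overlapped in atypical cells, in other B cells and in cells without Cd79.

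**Figure D4:**
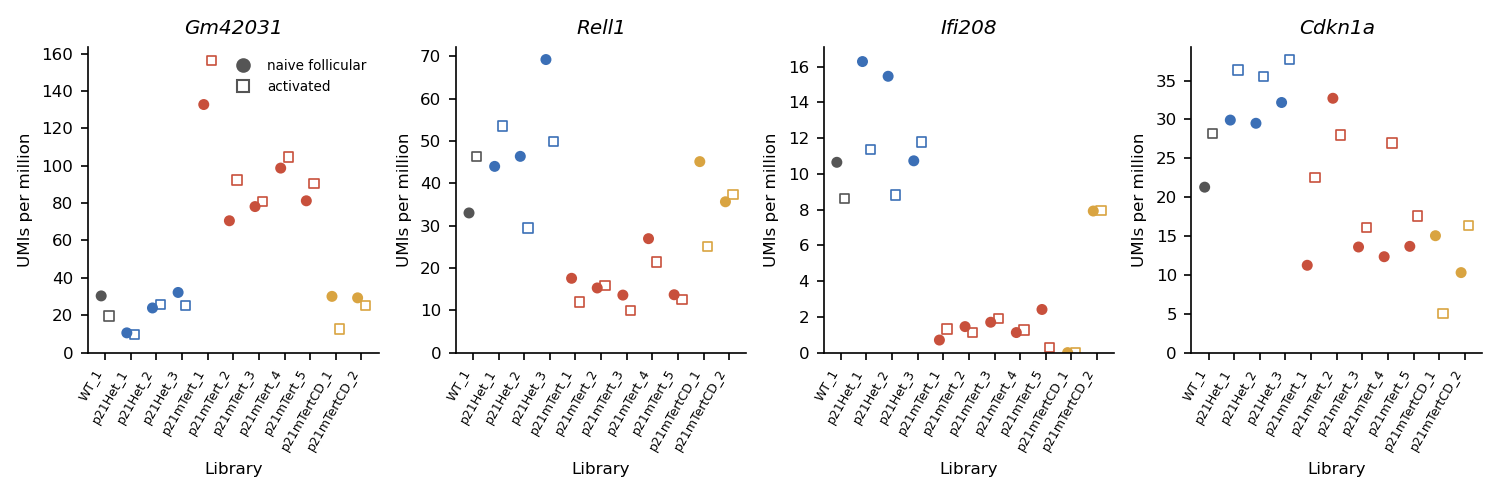
CPM (vertical) of Gm42031, Rell1, Ifi208 and Cdkn1a in each library (horizontal), in naive cells (filled circles) and activated B cells (open squares). Gm42031 lies at 70.5 to 133 CPM in p21mTert and 10.6 to 32.2 CPM in p21Het naive cells, and Rell1 and Ifi208 are lower in all p21mTert libraries. In naive cells only, p21mTert_2 stands far above the other p21mTert libraries in Cdkn1a.

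The functional lists of these cells held few differences between p21mTert and p21Het. The median log2 fold change of all 9479 genes was 0.00. None of the 18 follicular identity genes passed the test. They had a median of 0.10, 16 were above 0, and Ighm, Cd37, Ms4a1 and Fcmr stood at 0.07, 0.15, 0.05 and 0.12. The 17 transcription factors had a median of 0.12 (Ebf1 0.05, Klf2 0.18, Mef2c 0.24), the 20 genes of B cell receptor signalling 0.05, the 14 homing genes -0.08 and the 14 survival genes -0.00, with none passing. The same held for 10 MHC class II genes (median 0.09) and 16 immediate early genes (median 0.06).

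The interferon response list had 17 of 20 genes tested, a median of -0.03 and 1 call, Ifi208. Its relatives in the same cluster, Ifi203 and Mndal, had log2 fold changes of 0.09 and -0.00. Ifi213, a further relative at lower levels, was at 18.5, 12.6 and 10.7 CPM in p21Het and at 11.9, 9.45, 6.79, 5.61 and 17.7 CPM in p21mTert, where the groups overlapped. Ifi203 was at 273, 298 and 228 CPM in p21Het and at 312, 202, 313, 228 and 393 CPM in p21mTert. The interferon-induced Ifi27l2a stood at -0.03. Of the joint list of p53 targets and telomerase genes 13 of 20 were tested, with a median of 0.05 and no call, and Sesn1 and Bax, a stress-induced sestrin and an effector of cell death, stood at 0.03 and 0.05.

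Beyond the 3 called genes, those of smallest p that were higher in p21mTert were AC149090.1 (log2 fold change 0.69, edgeR adjusted p = 0.827), Hist1h1a (1.51, adjusted p = 0.959), AC125149.3, Iglc1 and Ppwd1, and none passed. The lower ones were Lyz1 (-3.05, edgeR adjusted p = 0.172), C1qc (-4.81, adjusted p = 0.337), C1qa, C1qb and Ccl3, which are genes of macrophages and monocytes. Lyz1, a lysozyme, had 166, 44 and 10 UMIs in the p21Het libraries, of which 150, 35 and 1 were in a single cell each, and 0 to 10 UMIs in the p21mTert libraries. Without the cells holding other cells' markers its log2 fold change was -0.48. The macrophage list summed to 265 to 2511 CPM in p21Het and 490 to 1140 CPM in p21mTert naive cells. The alveolar epithelium list summed to 1731 to 12031 CPM in p21Het, 3141 to 6115 CPM in p21mTert, 4728 CPM in p21mTertCD_2 and 10372 CPM in WT_1. Of its 8 genes, 5 had an unadjusted p under 0.05 in p21mTert against p21Het, all lower, with a median of -1.56 for the 8. Over all genes tested, 2.14% were lower at that p. Neutrophil markers summed to 443 to 7173 CPM in p21Het and 111 to 2371 CPM in p21mTert, and erythroid markers to 181 to 9744 and 296 to 15658 CPM. Their part in the gene comparisons was tested only by leaving out the cells with 20 or more such UMIs, Sftpc and Scgb1a1 not counted.

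Against p21mTertCD, 3 genes passed the test (0.0316%), all lower in p21mTert: Igfbp2, Ager and Hopx. These are genes of alveolar type 1 epithelium, among them Ager, the receptor for advanced glycation end products, and Hopx, a homeodomain protein. Ager was at 23.4 CPM in WT_1 and 241.5 CPM in p21mTertCD_2, at 21.8, 9.45, 15.3, 7.85 and 9.65 CPM in p21mTert and at 28.6, 63.2 and 16.6 CPM in p21Het. Igfbp2, a binding protein of insulin-like growth factors, was at 57.8 CPM in p21mTertCD_2 and at most 3.90 CPM in any other library, and Hopx at 117 CPM against 17.0 to 51.1 CPM in the others with at least 20 naive cells. In these genes p21mTertCD_2 stood apart. The log2 fold change of p21mTert over p21mTertCD was -4.25 for Ager (edgeR adjusted p = 0.00127), -5.25 for Igfbp2 (adjusted p = 0.00182) and -1.88 for Hopx (adjusted p = 0.0148). In p21mTertCD over p21Het, 2 genes passed (0.0211%), Igfbp2 at 5.00 (edgeR adjusted p = 0.0251) and Hopx at 1.99 (adjusted p = 0.0320). At an unadjusted p under 0.05 these contrasts held 281 (2.96%) and 269 (2.84%) genes, of which 144 (1.52%) were lower in p21mTert and 126 (1.33%) higher in p21mTertCD. Ndnf, Lmo7, Vegfa, Akap5 and Col4a3 were next lower in p21mTert, with edgeR adjusted p of 0.0973 to 0.325, and Plekhm2, Ttc3, Gm42031, Sgk1 and Ammecr1l next higher, with none passing. For Gm42031 the log2 fold change of p21mTert over p21mTertCD was 1.63 (SE 0.47), for Rell1 -1.07 (SE 0.35) and for Ifi208 -2.40 (SE 0.69), each with an edgeR adjusted p of 1.00. Of the p21mTertCD_2 UMIs, 72 of 73 of Igfbp2, 173 of 305 of Ager and 61 of 148 of Hopx came from 1 cell each. Ager, but not Igfbp2 or Hopx, is itself among the markers by which cells were left out next. Its own value after that step was therefore set in part by the filter and is no test. Without the 197 cells of all libraries that held other cells' markers, 11 of them in p21mTertCD_2, no gene was called in either contrast, and the log2 fold change of Ager was -0.03 for p21mTert over p21mTertCD and -0.10 for p21mTertCD over p21Het. Of the B cell lists, no gene passed in either contrast.

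**Figure D5:**
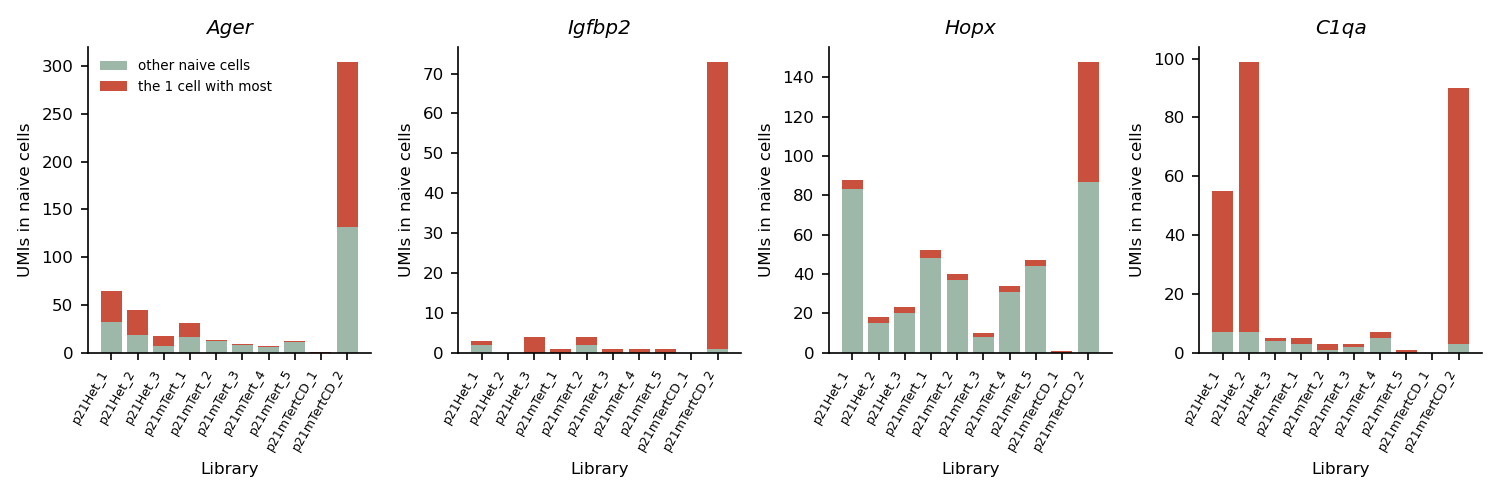
UMIs of Ager, Igfbp2, Hopx and C1qa summed over the naive cells of each library other than WT (vertical), with the part held by the 1 cell with the most in red. In p21mTertCD_2, 72 of 73 Igfbp2 UMIs and 87 of 90 C1qa UMIs lie in 1 cell.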

How the data were processed

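Mouse lung cells were captured with a droplet 3′ single-cell kit that counts UMIs. The deposited files hold raw UMI counts per gene and barcode, made by the authors with Cell Ranger on mm10, per the submitters' processing notes. The version in the file headers and that in the series' text differ, so none is given, and whether reads in introns were counted is not given in the sources used here. Barcodes were kept at 1000 to 30000 UMIs and at most 14% mitochondrial UMIs, the limits of the series' text. The members and gene lists were chosen with earlier results of these data known, and the lists are therefore no independent evidence.

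Counts of naive cells were summed per library (at least 20 cells) and tested with edgeR 4.0.16 (R 4.3.3, TMM, filterByExpr, glmQLFit and glmQLFTest, Benjamini-Hochberg adjusted p under 0.05). The fit held the p21Het and p21mTert libraries and 1 p21mTertCD library. DESeq2 1.42.0 was an alternative. Shares were compared by exact permutation of library labels (2-sided, difference of means, p adjusted over 9 tests). The smallest possible p was 0.0179 for p21mTert against p21Het, 0.0476 for p21mTert against p21mTertCD and 0.1 for p21mTertCD against p21Het. WT, with 1 library, entered no test. Intervals are exact (Clopper-Pearson, 95%) and cover counting error only. CPM is UMIs per 1000000.

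The text names Cdkn1a, Tert and Ifi208, then per contrast and direction up to 10 called genes whose groups do not overlap and whose higher group averages 10 CPM or more, or the 5 of smallest p where fewer than 5 were called, and list members. Gate genes and immunoglobulin V, D and J segments, but not constant regions, were left out of these picks. Doublets were scored with Scrublet (scanpy 1.11.5), with 0.8% of barcodes per 1000 marked, and kept, except in an alternative. Of 31053 gene identifiers, 31011 were found in GENCODE M21. On simulated counts for p21mTert against p21Het with 9074 genes, 46 of 100 genes changed 2-fold and 82 of 100 changed 4-fold were called, with 5 false calls. No pair of p21Het or of p21mTert libraries agreed within sampling noise (chi-square per degree of freedom 2.43 to 31.2), so none was merged as a library deposited in duplicate; this does not show that they came from separate animals. Alternatives covered the test, scaling, filters, groups, deposit, replicate block, left-out libraries, doublets, gates, depth and the light chain call.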

Additional observations from a re-analysis of the deposited data

Results flagged for a closer look

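Of 24 measures in the 5 p21mTert libraries, 4 had a single library far from the rest. Chance flags about 1 in 20 such groups if values are normally distributed, which was not checked, and skewed values are flagged more often. Erythroid markers summed to 15658 CPM in the naive cells of p21mTert_3, with the next library at 1406 CPM. Fibroblast markers summed to 251 CPM in p21mTert_2, with the next at 46.0 CPM. Natural killer cell markers summed to 616 CPM in p21mTert_4, with the next at 84.4 CPM. Cdkn1a was at 32.7 CPM in p21mTert_2, with the next at 13.7 CPM, and 8 of its 45 UMIs there were in 1 cell.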

How the results depend on the processing

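Gm42031, Rell1 and Ifi208 kept their direction in 21 of 21 alternatives for p21mTert against p21Het and were called in 11, 13 and 8 of them. Among the alternatives for counts of genes and for shares, 107 values stayed within 1.5 times or kept their direction and side of an unadjusted exact permutation p of 0.05, 35 counts moved by more, 14 lambda differences were no longer under that p and 13 differences turned in sign. Some of those 14 came from settings with too few libraries for an exact permutation p under 0.05. No share difference passed adjustment in the first place. Genes called for p21mTert against p21Het numbered 3, but 6 with DESeq2, 56 with no filter on low counts, 1 with a deposit term, 0 in the later deposit, 0 with a stricter gate (5 Cd79a and Cd79b and 2 Ighd UMIs) and 0 to 7 with a library left out (0 without p21Het_2, p21mTert_1, p21mTert_2, p21mTert_3 or p21mTert_5, 1 without p21Het_1 or p21mTert_4, 7 without p21Het_3). For p21mTert against p21mTertCD the 3 became 35 with no filter, 11 with only both groups, 10 without cells of high Scrublet score, 0 with the stricter gate and 3 to 8 with a library left out. For p21mTertCD against p21Het the 2 became 16 with no filter, 0 with only both groups, 1 with a deposit term, 0 in the later deposit, 6 without cells of high Scrublet score, 0 with the stricter gate and 0 to 3 with a library left out (0 without p21Het_1 or p21mTert_4). Chosen after seeing the data, adding p21mTertCD_1 gave 1 and 0 in these contrasts, and leaving out cells with 20 or more UMIs of other cells' markers gave 0 and 0, with Vegfa at 0.30 (p21mTert against p21mTertCD) and Ager at -0.10 (p21mTertCD against p21Het) turning in sign. Ager is itself among those markers, so its value there was set in part by the filter. What caused the other changes was not tested.

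The replicate number as a block gave 9 genes for p21mTert against p21Het, 2 of them among the 3 (Ifi208 was not called, log2 fold change -3.57, adjusted p = 0.143 by edgeR), and 2 and 2 in the other contrasts. Deviations from the group means of same-numbered libraries correlated at 0.59, 0.15 and 0.18, but only numbers 2 and 3 stand in the labels of both groups, the libraries called 1 being those deposited first. p21Het_2 correlated more with p21mTert_3 (0.38) than with p21mTert_2, and the libraries numbered 2 and 3 were taken to share only a number. Those called 1 also shared the first deposit, for which the main fit held no term.

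For the naive share of kept cells, p21mTert minus p21Het was 0.0336 on the logit scale, 1.21 points in the later deposit, 0.352 after thinning and -2.303 to 1.79 with a library left out, and p21mTert minus p21mTertCD was -0.407 to 4.20 and p21mTertCD minus p21Het -4.85 to -0.111. For the share of B cells the ranges were -6.79 to 0.254, -3.00 to 9.49 and -12.3 to 0.193 for p21mTertCD minus p21Het, and thinning gave 2.69 for p21mTert minus p21Het. The lambda difference of p21mTert from p21Het was 6.17 in the later deposit, -0.0871 after thinning and 5.06 to 6.20 with a library left out, and from p21mTertCD 6.57 in the later deposit, 3.09 by the larger chain (chosen after seeing the data) and 3.96 to 9.16. p21mTertCD minus p21Het was 0.236 on the logit scale, 1.20 by the larger chain and -3.62 to 1.58 with a library left out. Tert was too low to be tested, Ifi208 rests on 1 to 3 UMIs in each p21mTert library, and p21mTertCD_1 had 13 naive cells.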
